A study of Mus musculus with 6 samples.

Results

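The genes described here are 8 genes of cholesterol synthesis and its control by the transcription factor SREBP2, listed by name: *Srebf2*, *Insig1*, *Hmgcs1*, *Idi1*, *Fdps*, *Fdft1*, *Sqle* and *Lss*. Their rows were taken by gene symbol from a table of 16448 genes measured by RNA-seq in adult mouse cardiomyocytes (CMs), and 7 of the 8 were matched. *Fdps* is not analysed here. The study compared CMs lacking *Cpt1b*, the muscle form of the enzyme that lets long-chain fatty acids enter mitochondria for oxidation, with control CMs. The 3 Cpt1bcKO samples carried αMHC-Cre (pos/+) and floxed *Cpt1b* (fl/fl), and the 3 CtrlCre samples carried αMHC-Cre (pos/+) with wild-type *Cpt1b* (+/+), all on C57BL/6 and from mice of 8 to 12 weeks. The Cre is driven by the αMHC (*Myh6*) promoter, which is active in CMs from embryonic life on, so the loss of *Cpt1b* was long-standing, and both groups carried it. CMs were obtained by enzymatic digestion of the ventricles and low-speed centrifugation, with no sort.

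Cholesterol is built from acetyl-CoA through mevalonate, the isoprenoid farnesyl pyrophosphate, squalene and lanosterol. When membranes of the endoplasmic reticulum hold little sterol, the escort protein SCAP carries SREBP2 to the Golgi, where the proteases S1P and S2P release its active part, which enters the nucleus and switches on the genes of this pathway. When sterol is plentiful, INSIG proteins hold SCAP and SREBP2 back. Most enzymes of the pathway, *Srebf2* itself and *Insig1* are known targets of SREBP proteins, so their transcripts usually move together in cells whose sterol supply changes. Most tissues, the heart included, also take up cholesterol from lipoproteins made by the liver.

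SREBP proteins bind a sterol regulatory element in promoters, usually beside sites for the factors NF-Y (CCAAT box) and SP1 (GC box). RefSeq promoter windows of GRCm38.p6, from 250 bases before to 50 bases after the start of transcription, were matched for 5 of the 8 genes (*Srebf2*, *Insig1*, *Hmgcs1*, *Idi1* and *Lss*). They were searched on both strands for TCACNCCAC, a common form of the sterol regulatory element, for CCAAT, for GGGCGG and for CACGTG, the E-box that SREBP proteins can also bind. The upstream parts of 3 of them, the ones expressed well enough to test, are shown because they differ in these elements while belonging to the same pathway. Each is on the plus strand and reads 5′ to 3′, ending before the first annotated start, and capitals mark matches. They cover chr15:82147019-82147180 for *Srebf2*, chr5:28071162-28071362 for *Insig1* and chr13:119690101-119690350 for *Hmgcs1*.
Srebf2: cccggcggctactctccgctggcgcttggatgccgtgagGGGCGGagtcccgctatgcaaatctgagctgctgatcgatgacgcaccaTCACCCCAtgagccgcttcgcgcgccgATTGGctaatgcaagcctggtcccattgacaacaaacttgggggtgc
Insig1: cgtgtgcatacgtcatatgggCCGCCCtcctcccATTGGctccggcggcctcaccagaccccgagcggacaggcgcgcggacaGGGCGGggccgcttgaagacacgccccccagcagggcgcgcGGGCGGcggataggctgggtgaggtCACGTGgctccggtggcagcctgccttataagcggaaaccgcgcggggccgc
Hmgcs1: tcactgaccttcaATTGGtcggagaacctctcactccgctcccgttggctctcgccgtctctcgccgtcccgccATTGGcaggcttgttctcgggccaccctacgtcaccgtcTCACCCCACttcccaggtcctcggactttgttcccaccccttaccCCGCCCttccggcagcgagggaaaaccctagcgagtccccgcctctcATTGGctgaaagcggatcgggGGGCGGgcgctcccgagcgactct

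The 9-letter sterol regulatory element was found in *Hmgcs1* alone among the 5 windows, as TCACCCCAC with its first base at position −137 from the start of transcription. Of 32851 mouse promoter windows of this length, 1.24% held it. The *Srebf2* window held its first 8 letters, TCACCCCA, at position −162. This shorter motif was chosen after the sequences were seen, overlaps the longer one, and was present in 4.36% of windows. *Insig1* had neither form in this window but held an E-box at position −101, an element present in 7.15% of windows. A CCAAT box, found in 37.4% of windows, and a GC box, found in 35.7%, were present in all 5. A match is a run of letters and does not show that a factor bound there in these CMs.

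The targeted gene was low in every Cpt1bcKO sample. The deposited values are whole numbers, each a read count scaled by the size factor of its sample, and are called normalized counts below. *Cpt1b* had 1861, 893 and 1443 normalized counts in CtrlCre replicates 1 to 3 and 211, 353 and 285 in Cpt1bcKO replicates 1 to 3, a log2 fold change of −2.27 ± 0.267 (SE) with an adjusted *P* of 0.00338 (limma, Benjamini–Hochberg over the 11364 genes with at least 10 normalized counts in at least 3 samples). Values summed to between 13393411 and 31722217 per sample, of which mitochondrially encoded and ribosomal RNA genes took 74.8% to 89.5%, and to between 3146414 and 3551692 without these genes. A single read was worth 0.682 to 1.294 normalized counts in the 4 samples where this could be resolved, so a value near 10 rests on few reads. Replicate 1 of each group stood apart by *Xist*, the transcript of the inactive X chromosome in females, with 957 and 1080 normalized counts against 23 to 78 in the other 4 samples. The members are therefore also given within replicates 2 and 3, as are list genes where this gains or loses the unadjusted threshold or moves the value by over 1.5 times. The CM markers *Myh6*, *Actc1*, *Tnnt2*, *Tnni3*, *Ryr2* and *Myl2* were abundant in all samples, and their sum ranged from 211015 to 267229 in CtrlCre and from 159075 to 188812 in Cpt1bcKO.

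Markers of other cells moved with the groups. The 5 tested of 6 fibroblast markers were all higher in Cpt1bcKO samples with an unadjusted *P* below 0.05 (limma), 2 of them, *Col1a1* and *Lum*, past the adjusted test, and the sum of the 6 was 383 to 533 in CtrlCre and 729 to 897 in Cpt1bcKO. The 6 CM markers were all lower, 1 with an unadjusted *P* below 0.05. The 6 endothelial markers were all higher, 1 with an unadjusted *P* below 0.05, with sums of 1082 to 2269 and 1971 to 2306. Sums for the next types overlapped, with 583 to 1922 and 1040 to 1507 for 6 markers of smooth muscle cells and pericytes and 83 to 129 and 109 to 122 for 6 leukocyte markers. A pair of red cell markers summed to at most 20 in any sample. Fibroblasts and other interstitial cells also express *Lrp1*, *Apoe*, *Insig1* and *Srebf2*, and the part of these cells in the values below was not tested. In such bulk samples, fewer cells of a type and less RNA per cell cannot be told apart.

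None of the cholesterol synthesis genes passed the adjusted test with the group alone in the model (limma), against 1.57% of all genes tested, and *Fdft1* passed it with replicate number 1 as a covariate. The 4 members above the filter split evenly, with *Insig1* and *Srebf2* higher and *Fdft1* and, by a margin whose sign turned under another scaling, *Hmgcs1* lower in Cpt1bcKO CMs. With an unadjusted *P* below 0.05, the threshold used by the study, *Insig1* was higher, where 6.66% of all genes tested were, and *Fdft1* was lower, where 7.22% were. Groups did not overlap for *Insig1* and *Srebf2* in the higher direction, which held for 9.13% of genes tested, nor for *Fdft1* in the lower direction, which held for 9.6%. The median log2 fold change of the 4 genes was 0.20 and that of all genes tested was −0.0013. The mean of the 4 genes on the log2 scale, as the difference from the CtrlCre mean, was 0.17, −0.014 and −0.16 in CtrlCre replicates 1 to 3 and 0.17, 0.12 and 0.016 in Cpt1bcKO replicates 1 to 3. The 2 groups thus overlapped in this mean, and the values of single genes that stood apart lay in opposite directions.

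**Figure D1:**
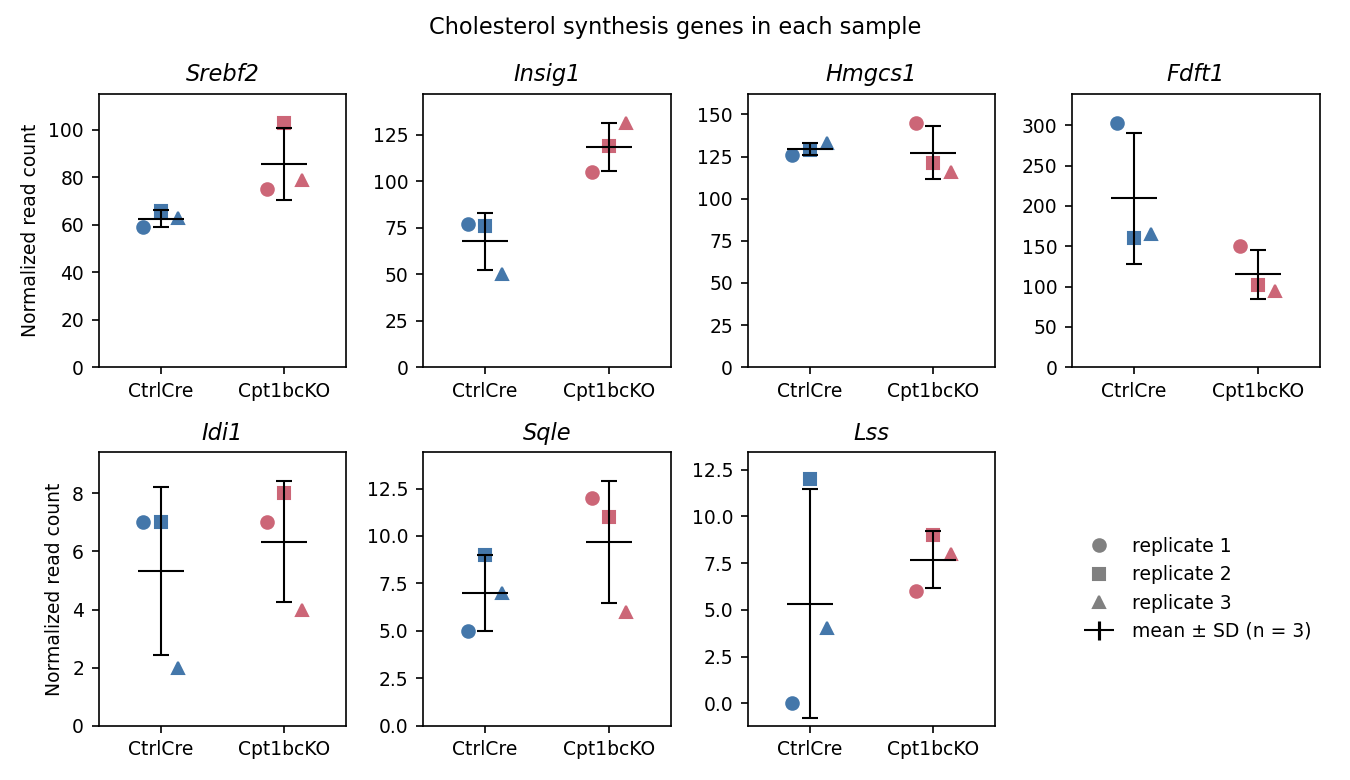
Normalized read counts (y axis, linear, a separate scale for each gene) of the 7 measured genes in CtrlCre and Cpt1bcKO CMs; symbols mark replicates and bars the mean ± SD (n = 3). The groups are separate for *Srebf2*, *Insig1* and *Fdft1*, the last in the opposite direction, while *Idi1*, *Sqle* and *Lss* stay at or below 12 normalized counts in every sample.

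*Insig1* (ENSMUSG00000045294, chr5:28071363-28078662, plus strand, GENCODE vM21) encodes the membrane protein that retains SCAP and SREBP2 in the endoplasmic reticulum when sterol is plentiful, and is itself one of the most responsive SREBP targets. It had 77, 76 and 50 normalized counts in CtrlCre and 105, 119 and 131 in Cpt1bcKO replicates 1 to 3. Every Cpt1bcKO sample was above every CtrlCre sample, and CtrlCre replicate 3 was the lowest. Means were 67.7 ± 15.3 and 118 ± 13.0 (SD, n = 3), and the log2 fold change was 0.82 ± 0.225 (SE), or 1.76-fold with a 95% confidence interval of 1.25 to 2.49. It had an unadjusted *P* below 0.05, ranked 389 among the 11364 genes tested, and an adjusted *P* of 0.125 (limma). Leaving out each sample in turn gave log2 fold changes of 0.62 to 0.92, with an unadjusted *P* below 0.05 in 6 of 6. Within replicates 2 and 3 the log2 fold change was 1.01, with an adjusted *P* of 0.0834 (limma).

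*Srebf2* (ENSMUSG00000022463, chr15:82147266-82205376, plus strand) encodes SREBP2 itself. Its normalized counts were 59, 66 and 63 in CtrlCre and 75, 103 and 79 in Cpt1bcKO CMs. The groups did not overlap, and Cpt1bcKO replicate 2 was the highest sample. The log2 fold change was 0.43 ± 0.209 (SE), 1.35-fold with a 95% confidence interval of 0.979 to 1.86, and passed neither threshold (limma, adjusted *P* = 0.392). The unadjusted *P* was below 0.05 without Cpt1bcKO replicate 1, after rescaling to the total without mitochondrially encoded and ribosomal RNA genes (0.54) and with replicate number 1 as a covariate, and the log2 fold changes without each sample in turn ranged from 0.29 to 0.52. Within replicates 2 and 3 the log2 fold change was 0.48 (adjusted *P* = 0.337, limma). Transcript level does not measure the cleaved, active protein. *Mir33*, a microRNA within an intron of *Srebf2*, is not analysed here.

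*Hmgcs1* (ENSMUSG00000093930, chr13:119690446-119708260, plus strand) encodes the cytosolic enzyme that makes HMG-CoA, an early intermediate on the way to mevalonate. It was measured at 126, 129 and 133 normalized counts in CtrlCre and 145, 121 and 116 in Cpt1bcKO replicates 1 to 3. CtrlCre samples lay within 7 normalized counts of each other, inside the range of the Cpt1bcKO samples. The log2 fold change was −0.03 ± 0.174 (SE), with a 95% confidence interval of 0.750-fold to 1.28-fold (limma, adjusted *P* = 0.963). The sign turned when values were rescaled to the total without mitochondrially encoded and ribosomal RNA genes (0.08), and without Cpt1bcKO replicate 2 (0.0044) or 3 (0.035). Within replicates 2 and 3 the log2 fold change was −0.14 (adjusted *P* = 0.743, limma). Of the 3 promoter windows shown above, that of *Hmgcs1* held the full sterol regulatory element.

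*Fdft1* (ENSMUSG00000021273, chr14:63145150-63179578, minus strand) encodes squalene synthase, which joins 2 molecules of farnesyl pyrophosphate in the first step committed to sterols. It had 303, 160 and 165 normalized counts in CtrlCre and 150, 102 and 94 in Cpt1bcKO replicates 1 to 3. Every Cpt1bcKO sample was below every CtrlCre sample, but CtrlCre replicate 1 was far above its group and Cpt1bcKO replicate 1 came within 10 normalized counts of the lowest control. Means were 209 ± 81.2 and 115 ± 30.3 (SD, n = 3), a log2 fold change of −0.82 ± 0.275 (SE), 1.77-fold lower in Cpt1bcKO CMs (limma, unadjusted *P* below 0.05, rank 734, adjusted *P* = 0.205). Without CtrlCre replicate 1 the log2 fold change was −0.52, the unadjusted *P* was above 0.05 and the adjusted *P* was 0.471 (limma). Within replicates 2 and 3 it was −0.72 (adjusted *P* = 0.0913, limma), and with replicate number 1 as a covariate it was −0.82 with an adjusted *P* of 0.0106 (limma), in a fit where 574 of all genes passed. The 3′ part of *Fdft1* overlaps *Ctsb*, a gene of the opposite strand that encodes a lysosomal protease, over 774 exonic bases, and whether the counting used strand is not given in the sources used here. By the study's methods, a read that fell on more than 1 gene was not counted. *Ctsb* was far more abundant, with 941, 1095 and 962 normalized counts in CtrlCre and 966, 1184 and 1262 in Cpt1bcKO CMs, a log2 fold change of 0.18 (adjusted *P* = 0.642, limma), and how many reads this left out of the *Fdft1* values was not tested.

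The other 3 measured enzymes were near the detection limit and below the filter of the test. *Idi1* (ENSMUSG00000058258, chr13:8885501-8892451), whose product interconverts the C5 isoprenoid units, had 7, 7 and 2 normalized counts in CtrlCre and 7, 8 and 4 in Cpt1bcKO. *Sqle* (ENSMUSG00000022351, chr15:59315081-59331192), which encodes squalene epoxidase, a rate-limiting enzyme of the late pathway, had 5, 9 and 7 against 12, 11 and 6. *Lss* (ENSMUSG00000033105, chr10:76531607-76555479), which encodes the cyclase that forms lanosterol, had 0, 12 and 4 against 6, 9 and 8. Groups overlapped for all 3, and exact permutation tests (two-sided) gave *P* values of 0.7, 0.3 and 0.5, where the smallest possible with 3 samples against 3 is 0.1. When the filter was dropped, their log2 fold changes were 0.30 ± 0.592, 0.40 ± 0.497 and 1.09 ± 0.803 (SE), none with a limma *P* below 0.05. No difference was detectable in these genes at this depth.

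Per kilobase of exon, levels can be set against each other between genes. In CtrlCre CMs *Fdft1* was first at 49.5 ± 19.2 normalized counts per kilobase (SD, n = 3), followed by *Hmgcs1* at 28.2 ± 0.764, *Insig1* at 21.9 ± 4.95 and *Srebf2* at 8.72 ± 0.489. *Idi1* at 1.52 ± 0.824, *Sqle* at 1.26 ± 0.361 and *Lss* at 0.494 ± 0.566 came last, *Idi1* and *Sqle* level within their spread and *Lss* below *Sqle* in every CtrlCre sample. Each of the first 4 lay above the next in every CtrlCre sample. In Cpt1bcKO CMs *Insig1* was first at 38.3 ± 4.21, *Hmgcs1* at 27.7 ± 3.37 and *Fdft1* at 27.3 ± 7.17 were level within their spread, and *Srebf2* followed at 11.9 ± 2.11. *Idi1* at 1.81 ± 0.594, *Sqle* at 1.74 ± 0.580 and *Lss* at 0.711 ± 0.142 again came last. By the mean, the most abundant transcript of the 7 was thus *Fdft1* in CtrlCre and *Insig1* in Cpt1bcKO CMs, but in Cpt1bcKO replicate 1 *Fdft1* (35.5) was above *Insig1* (33.9). Exon length is that of all annotated transcripts joined, and the transcripts in use in these CMs were not determined.

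Differences between a pair of genes within a sample depend on the scaling of that sample only through the 1 added to each value before the log. Log2 levels of *Insig1* minus those of its paralogue *Insig2*, which has the same retention function but is not a strong SREBP target, were −1.90 ± 0.437 in CtrlCre and −0.863 ± 0.284 in Cpt1bcKO CMs (SD, n = 3). The groups did not overlap (exact permutation *P* = 0.1, the smallest possible). *Insig2* itself had 234, 250 and 268 normalized counts in CtrlCre and 241, 193 and 214 in Cpt1bcKO, a log2 fold change of −0.22 with an adjusted *P* of 0.588 (limma). *Srebf2* minus *Srebf1*, the gene of the related factor SREBP1, was 0.352 ± 0.326 and 0.738 ± 0.188, and the groups overlapped (exact permutation *P* = 0.2). *Insig1* minus *Fdft1* went from −1.58 ± 0.462 to 0.0615 ± 0.511 with no overlap, a shift of 1.64 on the log2 scale. *Hmgcs1* minus *Fdft1* was −0.626 ± 0.549 and 0.165 ± 0.187, also with no overlap (exact permutation *P* = 0.1). CtrlCre replicate 1 was far from the rest of its group in this pair, at −1.26 against −0.31 in both other CtrlCre samples, and the Cpt1bcKO samples were at −0.049, 0.24 and 0.30. *Insig1* minus *Fdft1* had to separate the groups, since no sample overlapped for either gene, so it is given with no test. The pairs with *Fdft1* were chosen with its values known, and the *P* values of the other 3 pairs are unadjusted.

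**Figure D2:**
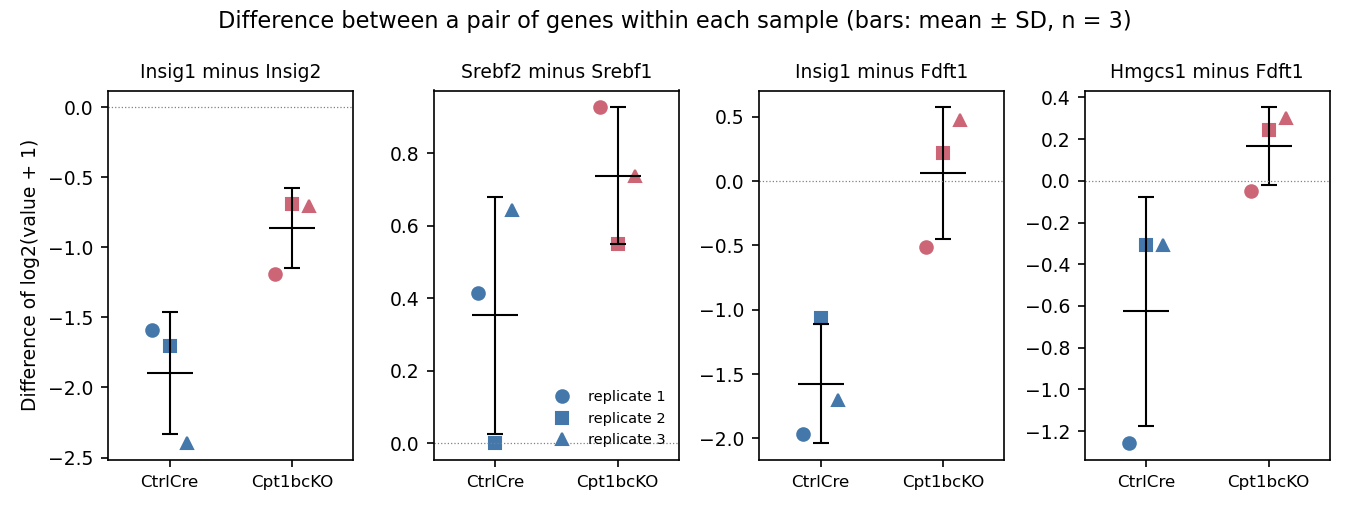
Difference of log2(normalized count + 1) between 2 genes of the same sample (y axis, a separate scale for each pair) in CtrlCre and Cpt1bcKO CMs, with symbols for replicates and bars for the mean ± SD (n = 3). *Insig1* minus *Insig2* lies between −2.40 and −1.59 in CtrlCre and between −1.19 and −0.69 in Cpt1bcKO, whereas *Srebf2* minus *Srebf1* overlaps between the groups.

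The other enzymes of the mevalonate and sterol pathway showed no shared direction. Of 16 listed enzymes, 12 were above the filter, 6 were higher and 6 lower in Cpt1bcKO CMs, the median log2 fold change was −0.063, and none passed the adjusted test. The sign of this median changed in 2 of the 6 fits without 1 sample, with values of 0.20 without CtrlCre replicate 1 and 0.12 without Cpt1bcKO replicate 2, and within replicates 2 and 3 (0.027). *Msmo1*, which encodes the sterol C4-methyl oxidase after lanosterol, was the only one with an unadjusted *P* below 0.05, 1 of 12 against 13.9% of all genes tested. It had 16, 32 and 27 normalized counts in CtrlCre and 41, 42 and 41 in Cpt1bcKO, with no overlap and a log2 fold change of 0.76 ± 0.307 (SE; limma, adjusted *P* = 0.299). The unadjusted *P* stayed below 0.05 in 2 of the 6 fits without 1 sample and was lost without CtrlCre replicate 1, the lowest sample (0.48), without any one Cpt1bcKO sample, and within replicates 2 and 3 (0.48). *Cyp51*, the lanosterol demethylase, had 82, 73 and 64 against 75, 103 and 97 (0.32, adjusted *P* = 0.549, limma). *Lbr*, a sterol reductase that also tethers chromatin to the nuclear envelope, was the lowest at −0.44, with no overlap (adjusted *P* = 0.438, limma), and at −0.26 without Cpt1bcKO replicate 3. Within replicates 2 and 3 *Cyp51* was at 0.54 and *Lbr* at −0.64, both with an unadjusted *P* below 0.05. *Mvk*, *Tm7sf2* and *Erg28* stayed below the filter, with values of 1 to 13 in all samples, as did *Idi1*, *Sqle* and *Lss*.

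**Figure D3:**
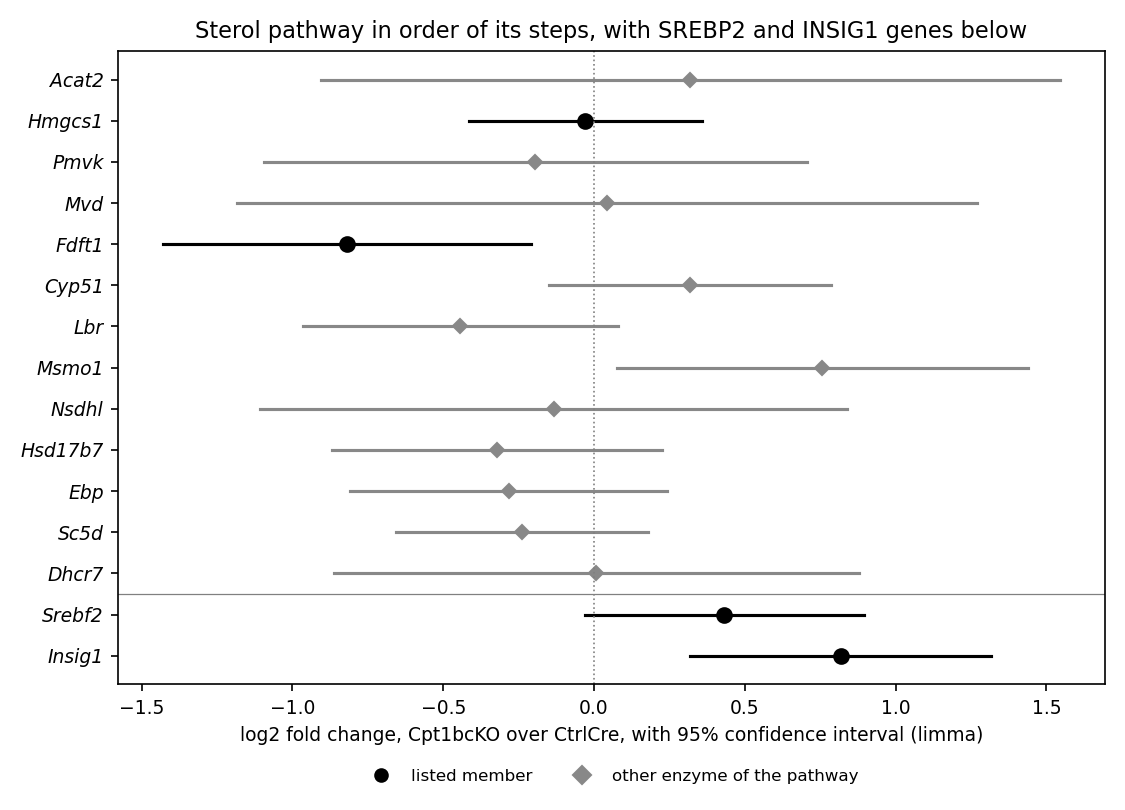
Log2 fold change, Cpt1bcKO over CtrlCre, with its 95% confidence interval (limma, n = 3 per group; x axis) for enzymes above the filter in the order of their steps, with *Srebf2* and *Insig1* below the line; black circles are the genes listed as members. The intervals of *Insig1*, *Msmo1* and *Fdft1* leave out 0, the first 2 above it and the last below it, and the other 12 intervals drawn include 0.

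Genes that process SREBP proteins or sense sterol lay in both directions. All 16 on this list were tested, 8 were higher and 8 lower, none had even an unadjusted *P* below 0.05, where 13.9% of all genes tested did, and the median log2 fold change was −0.00056. *Scap*, the escort of SREBP proteins, had 35, 37 and 28 normalized counts in CtrlCre and 36, 38 and 41 in Cpt1bcKO (log2 fold change 0.20, adjusted *P* = 0.770, limma). *Srebf1* had 44, 66 and 40 against 39, 70 and 47, a log2 fold change of 0.05 (adjusted *P* = 0.964, limma). Of the proteases, *Mbtps1* (S1P) was at −0.24, with no overlap (adjusted *P* = 0.554), and *Mbtps2* (S2P) at 0.39 (adjusted *P* = 0.566, limma). *Mbtps2* moved to 0.22 without CtrlCre replicate 1 and to 0.67, with an unadjusted *P* below 0.05, without CtrlCre replicate 2. The smallest adjusted *P* on the list, 0.455 (limma), belonged to *2410131K14Rik*, the symbol here for *Spring1*, a gene needed for SREBP processing, with 76, 78 and 87 against 94, 108 and 102, and no overlap. It passed the unadjusted threshold after the rescaling without mitochondrially encoded and ribosomal RNA genes (0.44).

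Cholesterol uptake, transport and storage genes were also divided, with 9 higher and 8 lower among the 17 tested of 18, and a median of 0.039. This median moved to 0.22 without CtrlCre replicate 2 and turned negative without CtrlCre replicate 1 (−0.086), without Cpt1bcKO replicate 2 (−0.093) and within replicates 2 and 3 (−0.031). *Lrp1*, a large endocytic receptor for lipoproteins carrying apolipoprotein E, had 120, 256 and 315 normalized counts in CtrlCre and 340, 416 and 430 in Cpt1bcKO. It did not overlap between the groups (log2 fold change 0.88 ± 0.304 SE, adjusted *P* = 0.219, limma), and was at 0.47 without CtrlCre replicate 1, its lowest sample, and at 0.57 within replicates 2 and 3, both with an unadjusted *P* below 0.05. The adjusted *P* of *Lrp1* was 0.0233 with replicate number 1 as a covariate and 0.0261 with the replicate number as a block (limma). *Stard3*, which encodes a cholesterol transfer protein of late endosomes, lay in the other direction with 63, 46 and 46 against 25, 33 and 31 (−0.77 ± 0.259 SE, adjusted *P* = 0.205, limma). Its unadjusted *P* was above 0.05 without CtrlCre replicate 1 (−0.63) and within replicates 2 and 3 (−0.51). *Osbp*, a sterol carrier between endoplasmic reticulum and Golgi, was at −0.31 (adjusted *P* = 0.385, limma) and passed the unadjusted threshold without Cpt1bcKO replicate 3 (−0.38) and with replicate number 1 as a covariate.

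Targets of the oxysterol receptors LXR and genes of cholesterol efflux had a median of −0.25, with 3 higher and 6 lower of 9. This median ranged from −0.43 without Cpt1bcKO replicate 1 to −0.16 without CtrlCre replicate 1 and was −0.14 after rescaling. *Apoe*, the lipoprotein component, had 79, 63 and 120 normalized counts in CtrlCre and 164, 131 and 157 in Cpt1bcKO, with no overlap (log2 fold change 0.82 ± 0.244 SE, adjusted *P* = 0.159, limma). *Abcg1*, which exports cholesterol and is a strong LXR target, had 12, 12 and 15 against 7, 6 and 6, also with no overlap (−0.93 ± 0.444 SE, adjusted *P* = 0.386, limma). *Abcg1* met the filter only through its CtrlCre values, so the filter itself favoured this separation, and such values rest on few reads. When at least 10 was required in all 6 samples, *Abcg1* was left out and the median of this list was −0.155. In the isoprenoid branches, which draw on the same farnesyl pyrophosphate as *Fdft1*, 6 of 12 genes were higher and 6 lower and the median was −0.0035. *Pdss1*, a subunit of the synthase that makes the side chain of coenzyme Q, had 125, 120 and 117 against 162, 157 and 177, with no overlap (0.45 ± 0.163 SE, adjusted *P* = 0.243, limma). Its unadjusted *P* was above 0.05 without replicate 3 of either group. *Ggps1*, which makes geranylgeranyl pyrophosphate, was at −0.36 (adjusted *P* = 0.431) and *Fntb*, a subunit of farnesyltransferase, at 0.59 (adjusted *P* = 0.442, limma). Without CtrlCre replicate 1 they were at −0.23 and 0.34, and *Fntb* was at 0.38 within replicates 2 and 3.

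Among fatty acid synthesis genes that SREBP1 drives, 8 of the 11 tested were higher and 3 lower, with a median of 0.15, and 3, all higher, had an unadjusted *P* below 0.05, where 6.66% of all genes tested were higher at that threshold. *Scd1*, the stearoyl-CoA desaturase, had 18, 19 and 40 normalized counts in CtrlCre and 42, 49 and 94 in Cpt1bcKO (log2 fold change 1.24 ± 0.390 SE, adjusted *P* = 0.181, limma). *Gpam*, which starts glycerolipid synthesis, had 1018, 974 and 544 against 1697, 1469 and 1009 (0.74 ± 0.259 SE, adjusted *P* = 0.227, limma), and *Me1*, a source of NADPH, had 550, 511 and 372 against 887, 707 and 493 (0.52 ± 0.227 SE, adjusted *P* = 0.344, limma). The groups overlapped for *Gpam* and *Me1*. *Gpam* was at 0.45 without CtrlCre replicate 3, and its unadjusted *P* was above 0.05 without that sample or without Cpt1bcKO replicate 2. *Me1* had a *P* below 0.05 in 2 of the 6 fits without 1 sample, with log2 fold changes of 0.33 to 0.75, and not within replicates 2 and 3 (0.44). Over the 6 lists, 40 of 77 tested genes were higher and 37 lower, 9 (11.7%; 7 higher and 2 lower) had an unadjusted *P* below 0.05, against 13.9% of all genes tested, and 0 passed the adjusted test (limma). These shares were 16.9% and 15.2% after rescaling, 14.3% and 12.2% without CtrlCre replicate 2, and 13.0% and 11.9% without Cpt1bcKO replicate 3. With the replicate number as a block, *Lrp1*, *Apoe*, *Scd1*, *Me1* and *Gpam* passed the adjusted test (limma). *Lrp1* also passed it with replicate number 1 as a covariate. Rescaling to the total without mitochondrially encoded and ribosomal RNA genes, which lifted the median of all genes by 0.11, turned the medians of the other sterol enzymes (0.042), the SREBP processing genes (0.11) and the isoprenoid branches (0.11) positive and left that of the LXR list negative. Without Cpt1bcKO replicate 2 the median of the SREBP1 list was 0.00087.

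**Figure D4:**
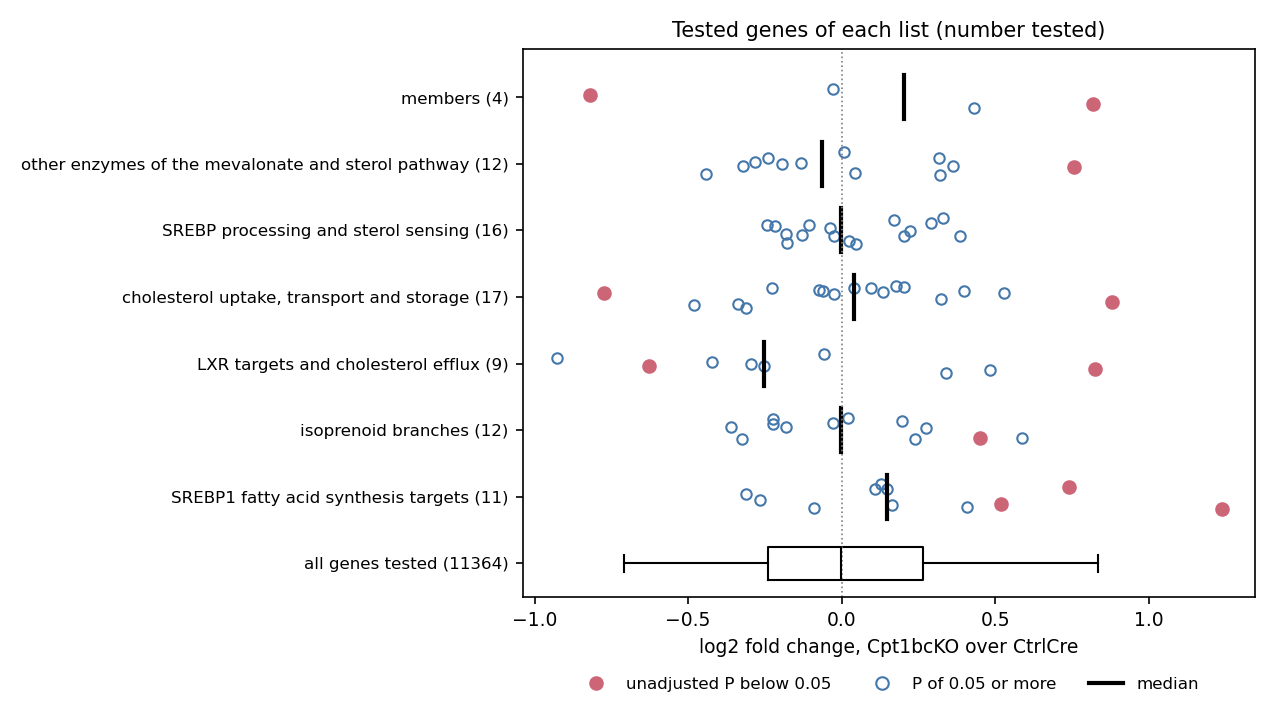
Log2 fold change, Cpt1bcKO over CtrlCre (x axis), of each tested gene by list, with the number tested in brackets, black bars for medians and filled circles for an unadjusted limma *P* below 0.05; the box spans the 25th to 75th percentile of all genes tested and its whiskers the 5th to 95th. List medians run from −0.25 for LXR targets to 0.20 for the members.

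The genes outside these lists whose levels followed the mean of the 4 tested members most closely over the 6 samples (genes averaging 50 normalized counts or more) were *Fam189a2* (Pearson's r = 0.992), *Cct3* (0.981), *Pphln1* (0.980) and *Srpk1* (0.978). The points share libraries and their scaling, and the list was picked from many genes, so these values are a description. *Fam189a2*, for example, had 354, 255 and 195 normalized counts in CtrlCre and 376, 350 and 270 in Cpt1bcKO, and none of these 4 passed the adjusted test (limma, adjusted *P* of 0.558 to 0.795).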

How the data were processed

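RNA-seq of adult CMs was analysed in 3 CtrlCre and 3 Cpt1bcKO samples, grouped and numbered by their titles. The titles do not name the animals, and the study describes its groups as separate mice. According to the submitters' processing notes and the study's methods, total RNA libraries were made with a stranded kit, and FastQC 0.11.8, Trimmomatic 0.36, STAR 2.5.4b, featureCounts 1.6.0 and DESeq2 1.14.1 were used, with the builds mm10 and GRCm38.p5. The annotation release and strand setting of the counting are not given in the sources used here. The deposited values are a score made by the authors: gene counts that were scaled by the size factor of their sample and then rounded, so count models were not used. Columns with the group means, fold changes and *P* values of the authors were not used.

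Values were transformed to log2(value + 1), and genes with at least 10 in at least 3 samples were tested with limma 3.58.1 in R 4.3.3 (lmFit, eBayes with trend, group only, two-sided) with Benjamini–Hochberg adjustment over 11364 genes. Fold changes are on this scale, which understates those of low genes. A 95% confidence interval was taken from the fit. Single values were compared with exact permutation tests over samples. Tables and plots were made with Python 3.11.15, numpy 2.4.6, pandas 2.3.3, scipy 1.17.1 and matplotlib 3.10.9. Gene positions and exon lengths came from GENCODE vM21. The members, lists and rules were chosen with earlier results of these data known. Named genes are the members, the 3 genes with the smallest *P* of each list, *Cpt1b*, and the 5 genes closest to the mean of the members, and some of these are not reported here. *Scap*, *Srebf1*, *Insig2*, *Ctsb*, *Xist* and the genes below the filter were named for their role. In counts simulated from the mean of each gene, with the same dispersion for all genes, the test recovered 68 of 98 genes with a log2 change of 1. It recovered 94 of 96 with a change of 2, with 3 false calls among 11409 genes tested. The simulation held no spread particular to a gene and no difference between replicate numbers. It therefore does not measure the power or error of the test on these samples. Alternatives were other scalings, pseudocounts of 0.5 and 5, other filters, 1 prior variance for all genes, a replicate block, replicate number 1 as a covariate, replicates 2 and 3 alone, and leaving out each sample.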

Additional observations from a re-analysis of the deposited data

How the results depend on the processing

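*Insig1* and *Srebf2* stayed higher and *Fdft1* lower in all 16 alternatives, and *Hmgcs1* changed sign in 3 of them without passing a threshold. Rescaling to the total without mitochondrially encoded and ribosomal RNA genes moved the median of all genes from −0.0013 to 0.11 and the median of the members to 0.31, so that 1221 genes were higher and 505 lower with an unadjusted *P* below 0.05 (70.7% higher), against 757 and 821 (48.0% higher). Without the filter, which brings in *Idi1*, *Sqle* and *Lss*, the median of the members was 0.40. With 1 prior variance for all genes, 41 genes passed the adjusted test in place of 178. Leaving out each sample gave 42 to 329 genes past the adjusted test and 1007 to 2262 past the unadjusted one, with 1 to 3 members past the latter (1 without CtrlCre replicate 1, and 3, with *Srebf2*, without Cpt1bcKO replicate 1).

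Apart from the high *Xist* of replicate 1 in both groups, same-numbered samples share only a number in the labels. Their deviations from the group means correlated at 0.376, 0.255 and 0.0684 across genes, and not every sample correlated best with its own number, since CtrlCre replicate 2 and Cpt1bcKO replicate 3 were at 0.147 and CtrlCre replicate 3 and Cpt1bcKO replicate 2 at 0.119. With the replicate number as a block, 603 genes passed the adjusted test, including 1 member, *Fdft1* (limma, adjusted *P* = 0.0137), and 5 genes of the lists, namely *Lrp1*, *Apoe*, *Scd1*, *Me1* and *Gpam*, and 15 list genes (19.5%, against 20.8% of all genes tested) had an unadjusted *P* below 0.05 in place of 9. *Srebf2*, *Osbp* and *Ggps1* passed the unadjusted threshold in both this fit and the next. Among the members and the list genes, the block changed no other call at the adjusted threshold. With replicate number 1 as a covariate, 574 genes passed, including 1 member, *Fdft1* (adjusted *P* = 0.0106, limma), and 1 list gene, *Lrp1*. The cause of these differences was not tested. Genes near 10 normalized counts rest on few reads, which limits what can be seen for *Idi1*, *Sqle* and *Lss*.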
